A study of Mus musculus with 6 samples.

Results

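The 10 genes described here encode RNA-binding proteins and cytoskeletal proteins that are best known from neurons: Elavl2, Elavl3, Elavl4, Celf3, Tubb3, Stmn2, Stmn3, Stmn4, Dcx and Nefm. They were picked by name, with their difference between the groups already known, out of 23284 gene symbols in the count table. All 10 have a row, and all 10 passed the filter on low counts. RNA had been sequenced from epithelium isolated from the mouse esophagus at stage E12.5, in 3 p63KO samples and 3 control samples. The p63KO embryos were homozygous for a Trp63-CreERT2 allele, a knock-in at the gene of the transcription factor p63, and the controls were littermates, titled wild type in the labels. The labels do not say whether a sample is 1 embryo or a pool, so the errors measure the spread between these samples, which may be technical.

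Elavl2, Elavl3 and Elavl4 (HuB, HuC and HuD) bind AU-rich stretches of mRNA and regulate its stability and splicing in neurons, whereas their relative Elavl1 (HuR) is found in most cells. Celf3 belongs to the CELF family of splicing and translation regulators. Tubb3 is the beta-tubulin of neurons, stathmins bind tubulin dimers and destabilise microtubules, doublecortin (Dcx) stabilises microtubules in migrating neurons, and Nefm is the medium subunit of the neurofilament. Several of these genes are also used by neuroendocrine cells, which share secretory and cytoskeletal machinery with neurons.

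Total counts lay between 13335328 and 16506401 in p63KO and between 16948971 and 20093838 in control. Levels are given as CPM, counts divided by library size after TMM scaling, and 3 counts in 1 library correspond to 0.177 to 0.223 CPM in p63KO and 0.153 to 0.176 CPM in control. The targeted gene Trp63 had 62.2 to 76.6 CPM in the p63KO libraries and 549.7 to 673.8 CPM in the control libraries, so each library matched its label in that gene. Control replicate 3 held 58 genes, none of them among the 10, above 5 CPM and more than 4-fold over every other library (1 CPM added to their level), control replicate 1 held 2 such genes, and the remaining 4 libraries held 0. Of the epithelial markers, Epcam (943.2 to 952.5 CPM in p63KO, 845.0 to 858.3 CPM in control), Cdh1, Krt8 and Krt18 were abundant in all 6 libraries. In bulk samples, more cells of a type and more RNA per cell cannot be told apart.

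All 10 genes were higher in every p63KO library than in any control library, a separation that 21.8% of the 13849 genes tested also showed in this direction. In the fit across all genes (edgeR quasi-likelihood test, Benjamini-Hochberg adjusted p under 0.05), 9 of the 10 were called higher and none lower, against 15.3% of all genes tested called higher and 29.6% called in either direction. None of the 10 lay below the control libraries, as 22.2% of all genes tested did. Since the genes had been chosen on this same contrast, these counts describe the choice and no test of the genes is drawn from them. The log2 fold changes of p63KO over control ran from 1.02 to 6.14 with a median of 3.20, and fell into 3 ranges. Celf3, Elavl3 and Tubb3 lay above 5, Elavl4, Stmn2 and Stmn3 between 3 and 5, and Elavl2, Stmn4, Dcx and Nefm below 3. Of all genes tested, 1.81% were separated upward with a log2 fold change of 3 or more, as were 6 of the 10.

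**Figure D1:**
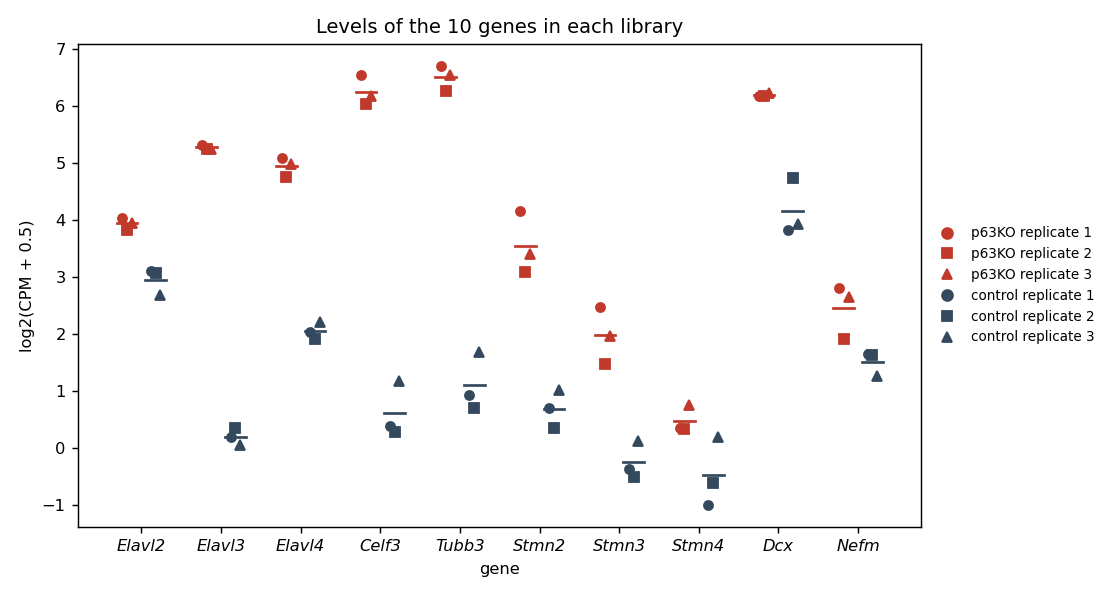
Level of each of the 10 genes in each library, as log2(CPM + 0.5) (vertical axis), with p63KO libraries in red, control libraries in dark grey, 1 symbol per replicate and a short line at the mean of each group of 3. Every red symbol lies above every dark symbol of the same gene. The gap is widest for Celf3, Elavl3 and Tubb3 and narrowest for Stmn4.

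Among the Elavl genes, the 3 neuronal members differed in how far apart the groups were. Elavl3 had 39.3, 37.4 and 37.3 CPM in p63KO replicates 1, 2 and 3, against 0.64, 0.77 and 0.53 CPM in control replicates 1, 2 and 3. It was near the counting floor in the controls, with 12, 15 and 9 counts, and its p63KO libraries were almost alike, with a coefficient of variation of 2.87%. The log2 fold change was 5.85 (SE 0.15). Elavl4 had 33.2, 26.4 and 31.1 CPM in the p63KO libraries, against 3.60, 3.27 and 4.12 CPM in the control libraries, a log2 fold change of 3.05 (SE 0.15). Elavl2 had 15.9, 13.7 and 14.8 CPM in the p63KO libraries, against 8.05, 7.86 and 5.94 CPM in the control libraries. Elavl2 was therefore already well detected in control, with 405 counts over the 3 libraries, and its log2 fold change was 1.02 (SE 0.16). Elavl1, the broadly expressed relative, was 229.7 ± 14.1 CPM in p63KO and 212.4 ± 19.6 CPM in control (SD, n = 3 each), and did not pass the test (log2 fold change 0.11, SE 0.08, edgeR adjusted p = 0.34).

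The windows of 250 bases before to 50 bases after the annotated starts of the Elavl genes are shown because the 3 genes changed by such different amounts. They are printed 5′ to 3′ on the gene's strand, from RefSeq on build GRCm38. Capitals mark each E-box CANNTG, the core bound by basic helix-loop-helix factors. Elavl3 (chr9:22051974-22052273, minus strand) holds CACCTG at -117 and CAGCTG at -43, counted from 0 at the first transcribed base. Of the 4 windows of Elavl4, the one at chr4:110287478-110287777 (minus strand) holds CACCTG at -100, CAGCTG at -46, CAGATG at -39 and CAGTTG at 25. Another, overlapping window of Elavl4 holds these 4 as well, while the remaining windows hold 1 and 0. Of the 6 windows of Elavl2, the one at chr4:91399935-91400234 (minus strand) holds a single CAGCTG at 1.
Elavl3: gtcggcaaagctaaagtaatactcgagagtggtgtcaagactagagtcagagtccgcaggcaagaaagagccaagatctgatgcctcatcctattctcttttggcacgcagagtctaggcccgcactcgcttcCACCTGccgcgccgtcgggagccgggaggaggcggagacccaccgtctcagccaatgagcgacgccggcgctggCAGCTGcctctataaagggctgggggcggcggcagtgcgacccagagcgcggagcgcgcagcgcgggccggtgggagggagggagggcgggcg
Elavl4: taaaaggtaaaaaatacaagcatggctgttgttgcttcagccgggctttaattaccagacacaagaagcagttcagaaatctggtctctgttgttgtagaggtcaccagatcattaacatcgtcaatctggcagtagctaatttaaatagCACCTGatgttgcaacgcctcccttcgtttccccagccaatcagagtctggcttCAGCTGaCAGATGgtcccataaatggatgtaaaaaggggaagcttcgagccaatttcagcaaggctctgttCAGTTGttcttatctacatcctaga
Elavl2: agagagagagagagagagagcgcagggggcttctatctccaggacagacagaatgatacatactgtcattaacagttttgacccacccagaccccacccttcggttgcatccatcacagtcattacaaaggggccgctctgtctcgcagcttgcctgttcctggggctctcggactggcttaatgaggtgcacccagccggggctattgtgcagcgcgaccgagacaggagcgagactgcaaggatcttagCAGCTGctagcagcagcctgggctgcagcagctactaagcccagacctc

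Celf3 had 92.4, 64.9 and 71.8 CPM in p63KO replicates 1, 2 and 3, against 0.81, 0.71 and 1.76 CPM in control replicates 1, 2 and 3. The lowest p63KO library was 36.8 times the highest control library, which was control replicate 3. Its log2 fold change of 6.14 (SE 0.26) was the largest of the 10 genes, and it was 6.64 without control replicate 3. Among the other Celf genes, Celf6, which like Celf3 is known mainly from the nervous system, had 102 counts in p63KO and 2 in control. This is a depth-scaled ratio of 62.8 (exact 95% interval 16.9 to 525.2, which covers counting error only). Celf6 rose (edgeR adjusted p = 1.0e-04), and so did Celf2 by 0.31 (SE 0.07, adjusted p = 0.0075) and Celf4 by 0.54 (SE 0.16, adjusted p = 0.028) on the log2 scale. The Celf4 call was lost without p63KO replicate 1 or 3 or control replicate 1 or 3 (edgeR adjusted p = 0.086, 0.056, 0.080 and 0.061). Celf1, the most abundant by CPM, was 378.0 ± 23.0 CPM in p63KO and 354.0 ± 26.6 CPM in control and did not pass (0.09, SE 0.07, edgeR adjusted p = 0.39).

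Tubb3 had 103.3, 75.9 and 92.6 CPM in p63KO replicates 1, 2 and 3, against 1.40, 1.12 and 2.70 CPM in control replicates 1, 2 and 3. The lowest p63KO library was 28.1 times the highest control library. The log2 fold change was 5.72 (SE 0.24), and 6.16 without control replicate 3, which had the highest control value. The promoter windows of Celf3 and Tubb3 are shown because these genes had fold changes above 5 on the log2 scale, with the same capitals as above. The window of Celf3 at chr3:94482472-94482771 (plus strand), 1 of its 7, holds CANNTG at -165, -107, -85 and -75, the most of its windows, since 5 of the 7 hold 1 and another holds 2. The single Tubb3 window holds none and is chr8:123411303-123411602 on the plus strand.
Celf3: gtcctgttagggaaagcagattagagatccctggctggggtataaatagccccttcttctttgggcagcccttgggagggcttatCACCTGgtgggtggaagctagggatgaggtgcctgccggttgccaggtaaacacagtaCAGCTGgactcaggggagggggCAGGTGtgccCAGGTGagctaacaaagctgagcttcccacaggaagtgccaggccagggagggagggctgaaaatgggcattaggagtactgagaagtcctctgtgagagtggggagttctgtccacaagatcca
Tubb3: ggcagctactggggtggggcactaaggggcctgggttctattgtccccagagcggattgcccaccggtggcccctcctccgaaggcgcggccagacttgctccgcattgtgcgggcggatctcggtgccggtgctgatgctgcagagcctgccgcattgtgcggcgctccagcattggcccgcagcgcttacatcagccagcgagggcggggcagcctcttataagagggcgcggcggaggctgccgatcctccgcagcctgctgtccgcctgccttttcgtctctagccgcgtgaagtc

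Sequence matches were counted over all windows, on both strands. CAGCTG stood in a window of 4 of the 7 members with windows (Celf3, Elavl2, Elavl3 and Elavl4) and of 18.3% of 27025 genes. CAGATG stood in a window of 3 of the 7 (Celf3, Elavl4 and Stmn3) and of 19.2% of all genes, and CANNTG, which includes both, in 5 of the 7 (not Tubb3 or Dcx) and 75% of all genes. The RE1 element, bound by the repressor REST of neuronal genes, was searched with at most 4 mismatches and was in no member's window and in 0.274% of all genes. The response element of the p53 family, searched with at most 2 mismatches, was in the windows of Dcx alone among the members and in 0.94% of all genes. The 7 members had 22 windows and all 27025 genes had 32851, so the shares by gene rest on unequal numbers of windows. By window, CAGCTG was in 9 of 22 and in 16.3% of all windows. CAGATG was in 7 of 22 and 17.2%, and CANNTG in 18 of 22 and 72.3%. Several member windows overlap and count the same site again. These matches describe 300 bases around the starts and no site or binding was measured.

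Of the 10 genes, Stmn2 and Stmn3 varied most between the p63KO libraries, with coefficients of variation of 41.4% and 39.1%. Stmn2 had 17.2, 7.96 and 10.02 CPM in p63KO replicates 1, 2 and 3, against 1.13, 0.77 and 1.53 CPM in control replicates 1, 2 and 3. Stmn3 had 5.07, 2.28 and 3.41 CPM in the p63KO libraries, against 0.27, 0.20 and 0.59 CPM in the control libraries. For both genes p63KO replicate 1 was more than 2 times p63KO replicate 2 (2.16 and 2.22 times), yet the groups stayed apart. Their log2 fold changes were 3.37 (SE 0.36) and 3.35 (SE 0.47). Stmn4 was at the limit of detection, with 13, 11 and 16 counts in the p63KO libraries and 0, 3 and 11 counts in the control libraries. In CPM it was 0.77, 0.76 and 1.19 in p63KO and 0, 0.15 and 0.65 in control, so the lowest p63KO library was 1.18 times the highest control library. Stmn4 was the 1 gene of the 10 that was not called (log2 fold change 1.77, SE 0.80). Its value rested on single control libraries, being 3.40 without control replicate 3 and 1.19 without control replicate 1. Stmn1, the stathmin of proliferating cells, was 105.4 ± 10.5 CPM in p63KO and 121.0 ± 9.02 CPM in control and did not pass (-0.20, SE 0.09, edgeR adjusted p = 0.12).

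Dcx, the microtubule stabiliser of migrating neurons, had 71.2, 71.7 and 74.4 CPM in p63KO replicates 1, 2 and 3, against 13.6, 26.0 and 14.6 CPM in control replicates 1, 2 and 3. The p63KO libraries were within 1.04 times of each other, while control replicate 2 was well above the other controls. The log2 fold change was 1.99 (SE 0.21), and 2.35 without control replicate 2. The related doublecortin-like kinase genes Dclk2 (38.6 ± 6.41 CPM in p63KO, 9.31 ± 0.95 CPM in control) and Dclk1 (6.20 ± 1.504 CPM in p63KO, 2.59 ± 0.39 CPM in control) rose as well, with log2 fold changes of 2.05 and 1.26 (edgeR adjusted p = 8.3e-06 and 0.0042).

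Nefm had 6.49, 3.25 and 5.79 CPM in p63KO replicates 1, 2 and 3, against 2.63, 2.60 and 1.88 CPM in control replicates 1, 2 and 3. The groups came close, since p63KO replicate 2 was 1.24 times the highest control library. The log2 fold change was 1.12 (SE 0.30). Exons of Nefm and Nefl share 1108 bases on opposite strands in GENCODE M21, 19.2% of the Nefm exon length, so without a stated strand setting their reads there cannot be told apart. Nefl, the light subunit, was at 0.05 (SE 0.31, edgeR adjusted p = 0.93).

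Read shares within each family show the same contrast without any scaling between libraries, and are shares of reads, not of molecules. Elavl2, Elavl3 and Elavl4 together took 29.1%, 24.1% and 26.6% of the reads of the 4 Elavl genes in the p63KO libraries, against 5.71%, 4.82% and 5.04% in the control libraries. Celf3 took 13.2% ± 2.32 of the Celf reads in p63KO and 0.247% ± 0.142 in control (SD, n = 3 each). The share of Stmn2, Stmn3 and Stmn4 among stathmin reads was 13.4% ± 5.22 in p63KO and 1.40% ± 0.583 in control. Tubb3 stayed a small part of the beta-tubulin reads, at 2.88% ± 0.415 in p63KO and 0.0569% ± 0.025 in control. Dcx and Nefm did not shift within their families beyond the spread between libraries. Dcx took 61.7% ± 4.48 of the doublecortin family reads in p63KO and 58.8% ± 8.35 in control, and Nefm took 30.4% ± 6.55 of the reads of Nefm, Nefl, Nefh, Ina and Prph in p63KO and 30.7% ± 5.59 in control.

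**Figure D2:**
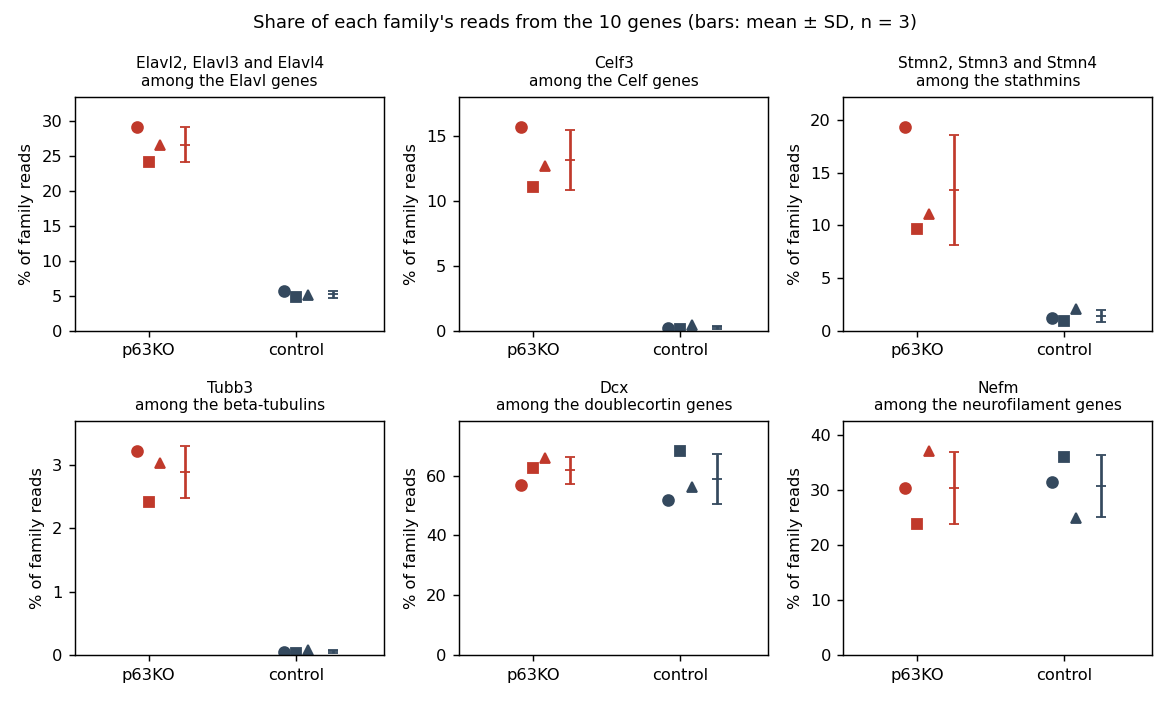
Percent of each family's reads that came from the genes described here (vertical axes, each from 0), for 3 p63KO and 3 control libraries, with the mean ± SD beside the points. The Elavl, Celf, stathmin and Tubb3 shares do not overlap between groups, while those of Dcx and Nefm do.

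Divided by the length of the longest coding transcript in GENCODE M21, levels could be ordered between the 10 genes. In p63KO, Tubb3 was highest at 48.5 ± 7.37 CPM per kilobase, followed by Celf3 at 24.1 ± 4.51. Dcx (7.98 ± 0.188), Elavl3 (7.58 ± 0.218), Elavl4 (7.28 ± 0.843) and Stmn2 (5.66 ± 2.35) followed, and within these 4 the neighbours in the order lay within 1 SD of each other, with the exception of Dcx and Elavl3. Below them came Elavl2 (3.54 ± 0.265), Stmn3 (3.16 ± 1.23), Nefm (1.41 ± 0.462) and Stmn4 (0.665 ± 0.18). The control order was different. There Dcx (1.99 ± 0.759 CPM per kilobase) and Elavl2 (1.74 ± 0.279) led and overlapped, and Elavl3 was lowest at 0.129 ± 0.0236, below Stmn4 at 0.196 ± 0.248. The transcript in use was not determined, so these levels depend on the length taken.

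Within the p63KO group most of the 10 genes were ordered alike by library. Replicate 1 was the highest p63KO library for 8 of the 10 genes and replicate 2 the lowest for 8, the exceptions at the top being Stmn4 and Dcx, which were highest in replicate 3. Summed over the 10 genes, the p63KO libraries had 384.8, 304.3 and 342.5 CPM and the control libraries 32.1, 43.5 and 34.3 CPM. In the control group, replicate 3 was highest for 6 of the 10 (Elavl4, Celf3, Tubb3, Stmn2, Stmn3 and Stmn4). How many of all genes tested had these orders was not counted, so the orders are not read as a trait of the 10.

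The genes closest in pattern to the mean of the 10 were Cck, Rundc3a, D130043K22Rik, Mapk8ip2 and Kcnc1. Likeness was the distance between log2(CPM + 0.5) profiles over the 6 libraries, each centred on its own mean, and lay between 0.178 for Cck and 0.283 for Kcnc1. In the order named, their log2 fold changes were 5.45, 2.94, 4.93, 3.17 and 4.52. The added 0.5 CPM shrinks differences where control levels are low, so a small distance does not mean a like fold change. Cck, the gene of the peptide hormone cholecystokinin, had 4.13, 2.91 and 3.41 CPM in the p63KO libraries, against 0.05, 0.05 and 0.12 CPM in the control libraries. Rundc3a had 40.2, 27.4 and 32.9 CPM in p63KO, against 4.45, 3.78 and 4.88 CPM in control. Among the 10 themselves this distance ran from 0.151 for Elavl4 to 3.39 for Celf3. The mean profile therefore represents Elavl4 and Stmn2 (0.602) better than those of the 10 with the largest or smallest fold changes.

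Other genes of the same families and functions were read from 6 lists that hold none of the 10. Over all genes tested, 15.3% were called higher and 14.3% lower, the background for the counts of each list. Of 9 tested paralogs in the Elavl, Celf, stathmin and doublecortin families, 5 rose (Celf6, Dclk2, Dclk1, Celf2 and Celf4) and 0 fell, with 1 lower at an unadjusted p under 0.05 in edgeR and 0 fell in DESeq2 and limma-voom. Their median log2 fold change was 0.54, against -0.01 over all 13849 genes tested. Dclk3 had too few counts to test.

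**Figure D3:**
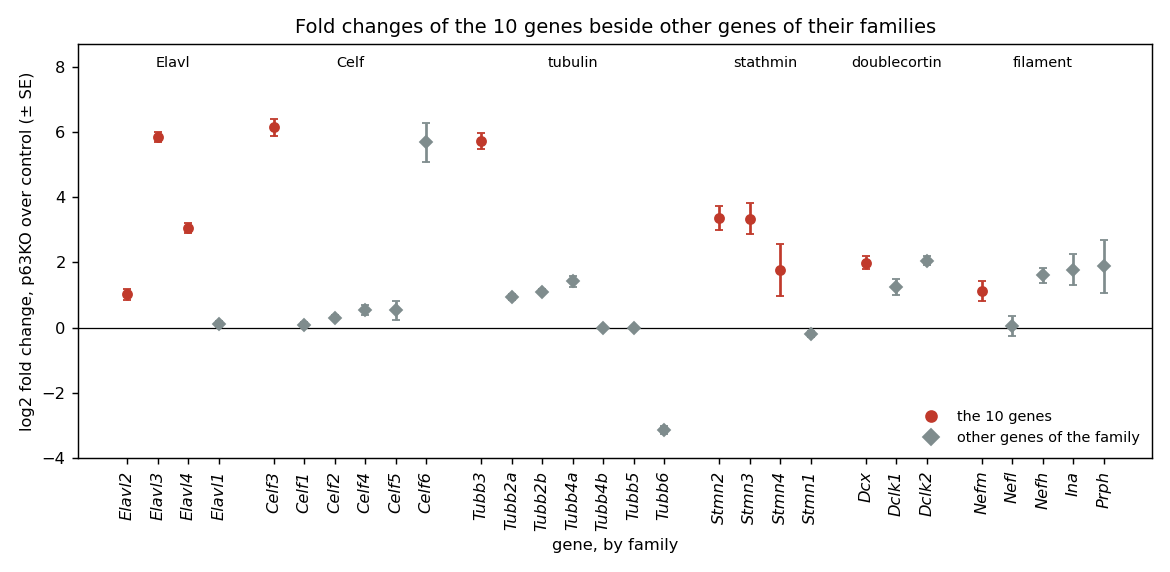
Log2 fold change of p63KO over control (vertical axis) with its SE for the 10 genes (red circles) and other tested genes of their families (grey diamonds). Elavl1, Celf1, Tubb4b, Tubb5, Stmn1 and Nefl lie near 0, Celf6 lies near Celf3, and Tubb6 lies at -3.14.

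Of 14 tested tubulin genes other than Tubb3, 5 rose (35.7%), 1 fell (7.14%) and 8 did not pass, with a median log2 fold change of 0.01. Tuba1a, the alpha-tubulin of developing neurons, rose (353.6 ± 51.0 CPM in p63KO, 142.2 ± 6.75 CPM in control, edgeR adjusted p = 1.4e-05). Tubb2b, also a neuronal tubulin, rose to 124.2 ± 6.55 CPM in p63KO, against 58.0 ± 3.71 CPM in control. Tubb4a, Tubb2a and Tuba4a were the other 3 that rose, Tuba4a losing its call without p63KO replicate 1 or 3 or control replicate 1 or 2 (edgeR adjusted p between 0.055 and 0.085). Tubb6 fell to 8.27 ± 1.01 CPM in p63KO, against 73.4 ± 6.26 CPM in control (log2 fold change -3.14, SE 0.11, edgeR adjusted p = 2.0e-07). Tubb5, the most abundant tubulin by CPM, was 2489 ± 64.2 CPM in p63KO and 2520 ± 148 CPM in control and did not pass (edgeR adjusted p = 0.865). Tubulin genes are close copies of each other, and how reads that match several were counted is not stated, so single tubulin values are uncertain.

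Of 8 tested intermediate filament genes of neural cells, 3 rose (37.5%), 0 fell and 5 did not pass (median 0.99). No member was lower at an unadjusted p under 0.05 in edgeR, and 0 fell in DESeq2 and limma-voom. Nes, the nestin of neural progenitors and other immature cells, rose (165.1 ± 10.9 CPM in p63KO, 90.1 ± 8.05 CPM in control, edgeR adjusted p = 4.8e-05). Nefh, the heavy neurofilament subunit, was 5.36 ± 0.94 CPM in p63KO and 1.76 ± 0.11 CPM in control (edgeR adjusted p = 0.00074). Ina, alpha-internexin, was 1.87 ± 0.917 CPM in p63KO and 0.541 ± 0.184 CPM in control, and its call (adjusted p = 0.021) was lost without p63KO replicate 1 or 2 or control replicate 2 or 3. Vim was at -0.13 (SE 0.10, edgeR adjusted p = 0.37).

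Of 33 tested microtubule-associated and kinesin genes, 18 rose (54.5%), 7 fell (21.2%) and 8 did not pass (median 0.37). Map6, a stabiliser of neuronal microtubules, rose (22.65 ± 3.43 CPM in p63KO, 2.92 ± 0.206 CPM in control), with a log2 fold change of 2.95 (SE 0.17, edgeR adjusted p = 2.3e-06). Map1a and Map1b, large microtubule-associated proteins of axons and dendrites, rose by 2.36 and 1.39 on the log2 scale (adjusted p = 1.9e-06 and 2.8e-06). Kif5b, the widely expressed kinesin heavy chain, rose by 0.33 (SE 0.08, adjusted p = 0.010). The number that fell was 4 without p63KO replicate 3, control replicate 1 or control replicate 2.

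Growth cone and axon genes had the largest share of rises among the 6 lists. Of 28 tested, 19 were higher (67.9%), 3 lower (10.7%) and 6 not past the test (median 0.88). The share that fell was near the 14.3% of all genes tested. At an unadjusted p under 0.05 in edgeR, 6 were lower and 19 higher. DESeq2 called 4 lower and 18 higher. Uchl1, a ubiquitin hydrolase abundant in neurons and neuroendocrine cells, rose (223.4 ± 16.0 CPM in p63KO, 59.6 ± 3.86 CPM in control, edgeR adjusted p = 3.6e-07). Basp1, a growth cone membrane protein, rose to 339.0 ± 38.0 CPM in p63KO, against 98.2 ± 7.39 CPM in control. Chl1, a cell adhesion molecule, fell to 3.69 ± 0.86 CPM in p63KO, against 28.35 ± 3.86 CPM in control (log2 fold change -2.93, SE 0.19, edgeR adjusted p = 4.9e-06). Marcksl1, the most abundant by CPM, did not pass (-0.16, SE 0.06, edgeR adjusted p = 0.075) but was called lower in DESeq2 (adjusted p = 0.042). Without control replicate 2, 1 gene of this list fell in place of 3.

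Of 26 tested neuronal RNA-binding and splicing genes, 10 rose (38.5%), 3 fell (11.5%) and 13 did not pass (median 0.19). Here too the share that fell was near the 14.3% of all genes tested. Cpeb3, which binds mRNA at cytoplasmic polyadenylation elements, rose (10.1 ± 0.362 CPM in p63KO, 2.04 ± 0.308 CPM in control, edgeR adjusted p = 2.5e-05). Rbms3 and Mbnl2 fell by 2.04 (SE 0.11) and 1.27 (SE 0.09) on the log2 scale (adjusted p = 2.2e-06 and 6.7e-06). Ptbp1, the polypyrimidine tract-binding protein of non-neuronal cells, was at 0.01 (SE 0.06, edgeR adjusted p = 0.93).

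**Figure D4:**
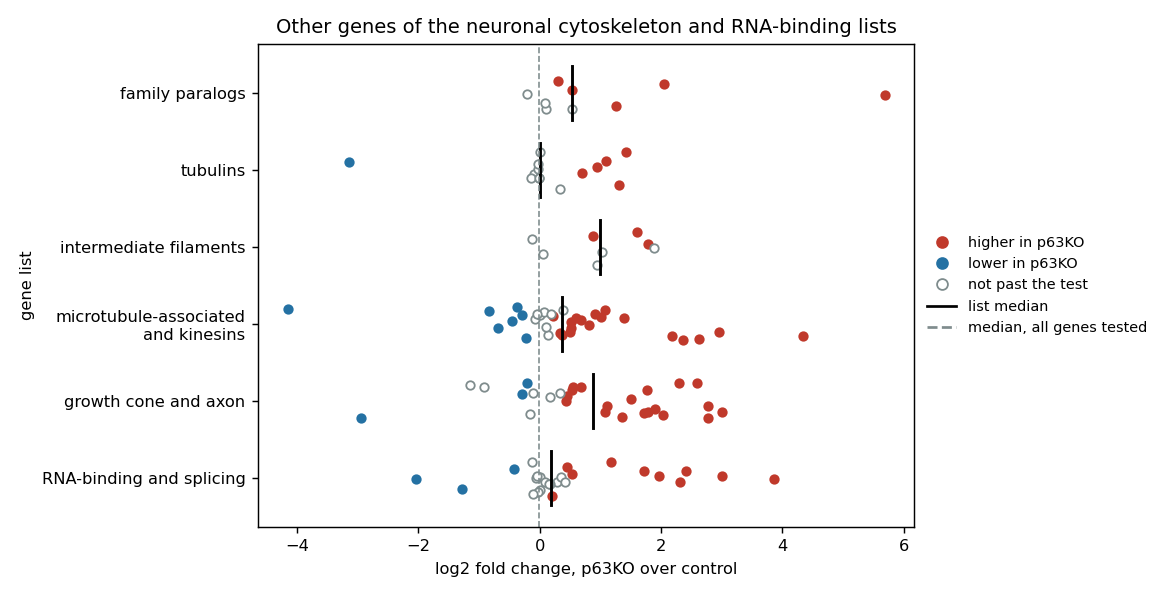
Log2 fold change of p63KO over control (horizontal axis) for every tested gene of 6 lists that hold none of the 10 genes. Filled red points rose, filled blue points fell, open points did not pass the test, black bars are list medians and the dashed line is the median of all genes tested (-0.01). The growth cone and axon list holds 19 red and 3 blue points, the tubulins 5 red and 1 blue.

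Marker genes of other cell types are given next, and their part in the result was not tested. Their counts of calls stand beside 15.3% higher and 14.3% lower over all genes tested. The summed level of 15 neuroendocrine markers was 473.2 to 616.5 CPM in p63KO and 5.36 to 24.6 CPM in control. Of these, 14 rose and 0 fell in edgeR (0 lower at an unadjusted p under 0.05, and 0 in DESeq2 and limma-voom), and limma-voom called all 15 higher. Insm1, a transcription factor of endocrine and neuroendocrine differentiation, averaged 168.7 ± 25.7 CPM in p63KO and 0.843 ± 0.288 CPM in control, and Chga, the granule protein chromogranin A, 12.0 ± 3.61 CPM in p63KO and 0.386 ± 0.157 CPM in control. Neurog3, which specifies endocrine progenitors, averaged 39.2 ± 4.30 CPM in p63KO and had 3 counts over the 3 control libraries. Rfx6 was the 1 not called (log2 fold change 0.73), with 14.05 CPM in control replicate 3, and was called without that library (6.50). By the summed level p63KO replicate 1 was the highest and replicate 2 the lowest library, as for most of the 10 genes. The order was not particular to this list. The sensory neuron and placode markers (65.9, 50.6 and 64.4 CPM in p63KO replicates 1, 2 and 3) had it too. The mesenchyme markers below (1651, 1257 and 1414 CPM) had it through Dcn. Without Dcn they had 309.8, 205.6 and 142.3 CPM, with replicate 3 the lowest.

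The summed level of markers of enteric crest, glia and neurons overlapped between the groups. The list summed to 153.1 to 181.4 CPM in p63KO and 161.7 to 175.0 CPM in control. Without Erbb3, which made up most of the sum, it was 11.7 to 24.0 CPM in p63KO and 18.9 to 36.1 CPM in control. Of its 16 genes 8 were tested, with a median log2 fold change of -0.81. Of these, 0 rose in edgeR (0 higher and 3 lower at an unadjusted p under 0.05, and 0 higher in DESeq2 and limma-voom). Ednrb fell. Its call was lost in several alternatives, among them limma-voom and the fits without p63KO replicate 1 or 3 or control replicate 1 or 3. DESeq2 called 2 genes lower, Sox10 being the other (adjusted p = 0.046). The defining markers Sox10 and Foxd3 were low in both groups, with Sox10 at 0.45 to 1.8 CPM in p63KO and 1.79 to 5.29 CPM in control and Foxd3 at 0.22 to 0.88 CPM in p63KO and 0.66 to 1.53 CPM in control.

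Sensory neuron and placode markers summed to 50.6 to 65.9 CPM in p63KO and 51.1 to 67.9 CPM in control. Of 4 tested, 1 fell and 0 rose in edgeR, with 2 lower and 0 higher at an unadjusted p under 0.05 and a median log2 fold change of -0.52. DESeq2 and limma-voom also called 1 lower and 0 higher, and 1 rose without p63KO replicate 1 or control replicate 1. Among the defining markers Pou4f1 was 0.41 to 0.90 CPM in p63KO and 0.12 to 0.32 CPM in control, and Prdm12 had at most 0.07 CPM in any library. Markers of spinal cord and brain summed to 111.6 to 129.3 CPM in p63KO and 104.9 to 128.1 CPM in control, of which Mnx1, also a foregut gene, made up most. The gene of that list that rose was Nkx6-1, which endocrine progenitors of the pancreas also use (19.2 ± 9.65 CPM in p63KO, 4.19 ± 1.84 CPM in control), while the defining markers Olig2, Dbx1 and Lhx5 had at most 0.14 CPM in any library.

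Mesenchyme markers summed to 1257 to 1651 CPM in p63KO and 450.8 to 533.8 CPM in control. Dcn carried this difference, since without it the sums were 142.3 to 309.8 CPM in p63KO and 239.9 to 385.4 CPM in control. Of 10 tested, Dcn and Twist1 rose and 5 fell, among them the defining markers Col1a1, Col3a1 and Pdgfra, while DESeq2 called 3 lower. Leaving out control replicate 1 left 1 of these 5 lower calls, leaving out p63KO replicate 3 left 2, and leaving out p63KO replicate 2 or control replicate 3 left 3. Muscle markers summed to 29.2 to 53.2 CPM in p63KO and 74.3 to 166.3 CPM in control, with Acta2, Actg2 and Myh11 lower, of which 1 call was left without p63KO replicate 3, and with the skeletal muscle factors Myog and Myod1 at most 0.43 CPM in any library. Endothelial and blood markers summed to 14.3 to 30.4 CPM in p63KO and 6.71 to 40.9 CPM in control, and 0 of 7 tested genes passed in edgeR (0 at an unadjusted p under 0.05, and 0 in DESeq2 and limma-voom), Hbb-y being called higher without control replicate 3 (edgeR adjusted p = 0.013). Of their defining markers, Pecam1, Cdh5 and Ptprc had at most 2.15 CPM in any library and Hba-a1 was at 0 in all 6. The epithelial markers summed to 5420 to 5586 CPM in p63KO and 5859 to 6780 CPM in control, with 5 of 13 higher and 3 lower.

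**Figure D5:**
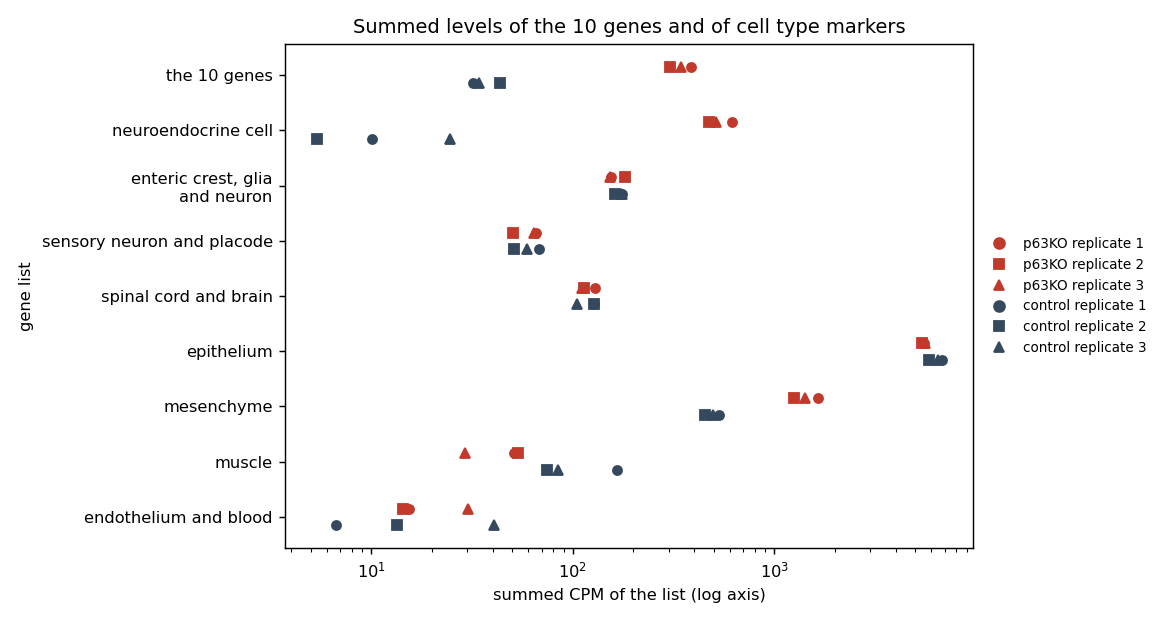
Summed CPM (horizontal log axis) of the 10 genes and of 8 lists of cell type markers in each library, p63KO in red above control in dark grey. The 10 genes and the neuroendocrine markers are separated between groups by the widest gaps, and the mesenchyme sum is separated through Dcn. The muscle and epithelium sums are separated too, both lower in p63KO. The enteric, sensory, spinal cord, and endothelium and blood sums overlap.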

How the data were processed

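RNA was sequenced from esophageal epithelium of 3 p63KO and 3 control samples. The authors deposited unnormalized counts, 1 row for each gene symbol. The submitters' processing notes list TopHat2 2.1.0, bcl2fastq 1.8.4 and DESeq2 with build mm9. Counter, annotation, strand setting and read layout are not given there. Columns were tied to samples by the names in the sample descriptions. All libraries of a group differed by more than sampling noise (chi-square per degree of freedom 7.53 to 15.3).

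The counts were read into edgeR 4.0.16 under R 4.3.3, where filterByExpr (minimum count 10, minimum total 15) kept 13849 of 18572 genes with a count, TMM scaling was applied, a quasi-likelihood model on group alone was tested, and p-values were adjusted over all genes tested (Benjamini-Hochberg, 0.05). The SE is the log2 fold change divided by the square root of F. Means are given with the SD over 3 libraries. The biological coefficient of variation was 12.7%. For p63KO against control, simulated counts of 13741 genes had 67, 66 and 65 tested genes changed 1.5-fold, 2-fold and 4-fold, of which 56.7%, 78.8% and 96.9% were recovered, with 12 false calls; far fewer genes changed there than in the data.

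The members and lists were chosen with earlier results of these data known. Named are the 10 genes, Trp63, in each of the 6 function lists the 3 genes with the lowest p and the most abundant one, the defining markers, and the 5 genes most like the members; other genes named were chosen after their values were seen. Some symbols were matched through older names (Map1a, Map1b and Map6 stand as Mtap1a, Mtap1b and Mtap6), and Drgx and Plppr3 were not matched. Some marker genes of the lists are not reported here. Of the 10 genes, 7 had promoter windows (22 in all, RefSeq, GRCm38); no window was used for Stmn2, Stmn4 or Nefm. Alternatives were DESeq2 1.42.0, RLE and upper quartile scaling, limma-voom (limma 3.58.1), no filter, 1 CPM in 3 samples, the replicate number as a block and each library left out.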

Additional observations from a re-analysis of the deposited data

How the results depend on the processing

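The 10 genes kept their direction in each of the 13 alternative fits that tested them; Stmn4 was not tested under the filter of 1 CPM in 3 samples. Their fold changes moved by more than the spread between replicates only for Stmn4 with limma-voom (2.65 on the log2 scale) and, with a library left out, for Stmn4, Elavl3, Celf3, Tubb3, Stmn3 and Dcx. With 1 library left out, 3150 to 3771 genes were called in place of 4098, the microtubule-associated genes that fell numbered 4 to 6 in place of 7, and the growth cone and axon genes that fell 1 to 3 in place of 3. No scaling moved the median of all genes by 0.1 on the log2 scale. The replicate number as a block gave 1 lower paralog in place of 0, Stmn1 (adjusted p = 0.018), 14 higher RNA-binding genes in place of 10, and no call for Ednrb (adjusted p = 0.065). With this block 4778 genes were called in place of 4098. Whether the numbers pair the samples was not established. Same-numbered p63KO and control libraries deviated from their group means with correlations of 0.202, 0.273 and 0.0487 across genes. Replicate 1, 2 and 3 each correlated best with its own number, a hint from the data only. The main fit used group alone. Genes near 3 counts in the controls, Stmn4 foremost, are limited by depth.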
